A study of Mus musculus with 2 samples.

Results

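The ILC1-like cells described here were 185 of 16305 kept cell barcodes, 76 in the inhibitor library and 109 in the control library. A barcode was kept when at least 300 genes were detected and at most 25% of its unique molecular identifiers (UMIs, counted mRNA molecules) came from mitochondrial genes. An ILC1-like cell had at least 1 UMI of Ncr1 or Klrb1c, none of Cd3d or Cd3e, at least 1 of Gzmc, Cd200r1 or Itga1, and none of Klra8, Klra4, S1pr5, Cd79a or Csf1r. The cells were thus selected on measured UMIs of these genes, whose levels are given only as a description. The libraries came from the liver tumour region of C57BL/6 mice recorded as 17 months old and kept on a CD-HFD diet for 15 months. The inhibitor library was labelled as FABP5 inhibitor treatment, started at month 13, and the control library as control. FABP5 binds fatty acids in the cytosol. Each group was a single library, so no p-values were computed. How many mice each library pooled, and what control mice received, was not given in the sources used here, and the text on treatment stands on both samples.

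Type 1 innate lymphoid cells (ILC1) are tissue-resident lymphocytes without an antigen receptor that share NK receptors and the transcription factor T-bet with conventional NK cells. In mouse liver they are told apart from conventional NK cells by CD49a (Itga1), CD200R1, CXCR6 and TRAIL (Tnfsf10), and by little Eomes and few Ly49 receptors. They are known for early interferon gamma and for killing through granzymes and TRAIL, whereas conventional NK cells circulate and carry much granzyme A and perforin.

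Among CD3- cells with an NK receptor UMI and no Cd79a or Csf1r, 76 of 243 (31.3%) were ILC1-like in the inhibitor library, against 109 of 217 (50.2%) in the control library. The exact binomial 95% intervals, 25.5 to 37.5% and 43.4 to 57.1%, did not overlap. Conventional NK-like cells, which had a UMI of Klra8, Klra4 or S1pr5 and none of Gzmc, Cd200r1 or Itga1, ran the other way, with 94 cells (38.7%) in the inhibitor library against 42 (19.4%) in the control library. Cells with neither marker set made up 28.8% in the inhibitor library and 28.1% in the control library, and 3 and 5 cells had both sets. Of all kept barcodes, ILC1-like cells were 0.803% in the inhibitor library (0.633 to 1.00%) and 1.59% in the control library (1.31 to 1.92%), a ratio of 0.503 (0.370 to 0.681). All intervals cover counting error only, so differences between animals or preparations are not in them. The cells had passed an Annexin V kit, and the sequenced fraction is not stated, so its effect on these shares was not tested.

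**Figure D1:**
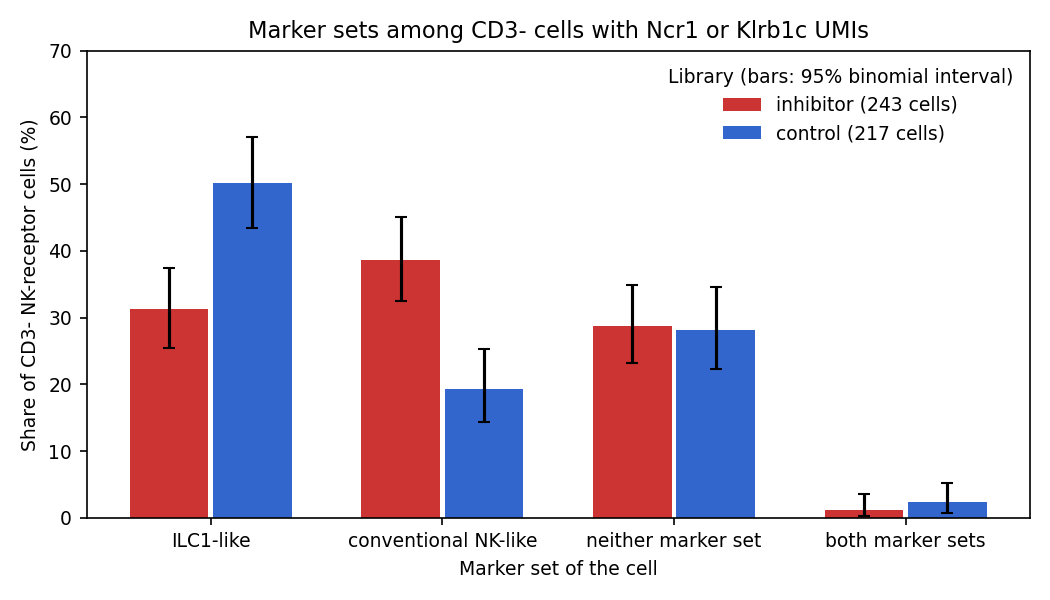
Share of CD3- NK-receptor cells (y axis, %) in each of 4 marker sets (x axis) for the inhibitor and control libraries, with exact binomial 95% intervals. ILC1-like cells were 31.3% in the inhibitor library and 50.2% in the control library, and conventional NK-like cells 38.7% and 19.4%.

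Membership rested on few molecules. In the inhibitor library 33 of 76 members had exactly 1 UMI of the 3 admitting genes Gzmc, Cd200r1 and Itga1, as had 43 of 109 in the control library. Just outside the rule, 20 barcodes in the inhibitor library and 7 in the control library failed by Csf1r. By Cd79a 1 barcode in the inhibitor library and 2 in the control library failed, and a barcode with both genes would be in both counts. By the mitochondrial limit alone 1 and 2 failed. A single UMI of Cd3d or Cd3e kept out 0 barcodes in the inhibitor library and 3 in the control library. The median ILC1-like cell had 4746 UMIs and 1674 genes in the inhibitor library and 4341 UMIs and 1662 genes in the control library. All 76 and 109 cells together held 386401 and 506254 UMIs. Between the libraries 29 barcode sequences were shared, and none of them was ILC1-like in both.

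The cells carried the liver ILC1 program in both libraries, judged from genes that the rule did not use. Levels below are CPM, the summed UMIs of a gene scaled to 1000000 UMIs of the same cells. Xcl1, a chemokine that attracts cross-presenting dendritic cells, stood at 3393 CPM in inhibitor and 3279 CPM in control ILC1-like cells. In conventional NK-like cells it stood at 599 CPM in the inhibitor and 595 CPM in the control library. The 2 ILC1-like values lay within each other's Poisson 95% intervals, and the log2 ratio to conventional NK-like cells was 2.50 in the inhibitor and 2.46 in the control library. Xcl1 lies at chr1:164931644-164935527 on the minus strand (GRCm38).

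Cxcr6, the receptor that holds lymphocytes in liver sinusoids, had 424 CPM in inhibitor and 512 CPM in control ILC1-like cells, and no UMI in the conventional NK-like cells of either library. Set against a floor of 3 UMIs, this was 53.2-fold higher in ILC1-like cells in the inhibitor and 27.8-fold higher in the control library. The lower interval bounds were log2 5.42 and 4.49. Tnfsf10, which encodes the death ligand TRAIL, had 77.6 and 134 CPM in inhibitor and control ILC1-like cells and no UMI in conventional NK-like cells. Against the same floor this was 9.72-fold and 7.29-fold higher, with lower interval bounds of log2 2.89 and 2.53. Il7r, the receptor for interleukin 7, had 192 and 203 CPM in ILC1-like cells, against 24.0 and 6.14 CPM in conventional NK-like cells of the inhibitor and control libraries. The control value of conventional NK-like cells is 1 UMI, with a log2 ratio of 5.05 (2.54 to 10.37). Cd7, Cd160 and Ltb followed the same order in both libraries. Tmem176a, Tmem176b, Inpp4b, Cd200r2 and S100a4 were also at least 2-fold higher in ILC1-like cells in both libraries.

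The genes of circulating NK cells were lower. Gzma, granzyme A, had 1206 CPM in inhibitor and 719 CPM in control ILC1-like cells, against 8031 and 10416 CPM in conventional NK-like cells. Eomes, the transcription factor of conventional NK cells, had 20.7 and 5.93 CPM in inhibitor and control ILC1-like cells, against 218 and 264 CPM in conventional NK-like cells. The control ILC1-like value rests on 3 UMIs, and the ratio to conventional NK-like cells was log2 -5.48 (-7.81 to -3.83). Klf2, which drives exit from tissues, had 458 and 273 CPM in ILC1-like cells, against 2400.4 and 3142 CPM in conventional NK-like cells. Prf1, the pore-forming perforin, had 248 and 130.4 CPM in ILC1-like cells, against 726 and 792 CPM in conventional NK-like cells. Cma1, Klra7, Klra3, Irf8, Sh2d1a and Klri2 were lower too.

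**Figure D2:**
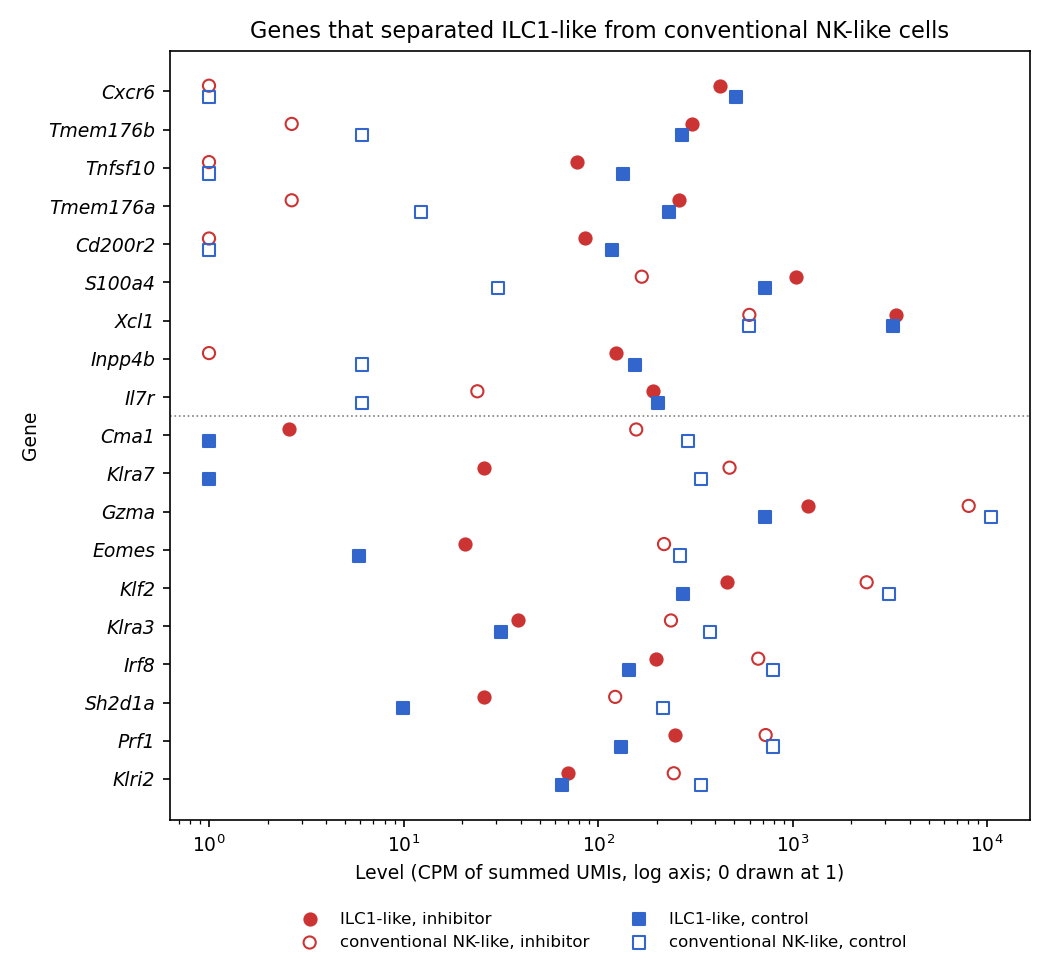
Levels (x axis, CPM on a log scale, 0 drawn at 1) of genes among the 10 highest and of the 10 lowest in ILC1-like (filled) against conventional NK-like cells (open), in the inhibitor (circles) and control (squares) libraries. Filled and open symbols are apart in every row, with Xcl1 at 3393 and 3279 CPM in ILC1-like cells and at 599 and 595 CPM in conventional NK-like cells.

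Over the list of ILC1 markers outside the rule, 17 of 19 measured genes were at least 2-fold higher in ILC1-like than in conventional NK-like cells in both libraries, and 0 were lower. Over the list of conventional NK markers outside the rule, 10 of 12 measured genes were lower and 0 higher. Among all 3782 genes measured in this comparison, 115 (3.04%) were higher and 62 (1.64%) lower in both libraries. The rule separated these cells from each other, so these counts describe the cells and are not tested. The NK and ILC1 core list, with Tbx21, Nkg7, Klrd1, Klrk1 and Il2rb, had 2 of 20 genes higher and 0 lower. It includes Ncr1 and Klrb1c, and a UMI of either was required of both cell sets, so their likeness is partly set by selection.

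Several markers of T cells, ILC2 and ILC3 were missing, while others were present. Of the T cell list 8 of 14 genes were detected in each library, summing to 1654 CPM in inhibitor and 1744 CPM in control ILC1-like cells, against 1684 and 2435 CPM in all other kept barcodes. Cd4, Cd5 and Cd6 had no UMI in ILC1-like cells of either library, and Trac had 7.76 CPM in the inhibitor and 11.9 CPM in the control library. Trbc1 was present at 828 CPM in both libraries, and Cd3g at 104 and 67.2 CPM. Trbc1 and Cd3g transcripts were therefore present in cells without Cd3d and Cd3e. All 8 genes of the ILC3 list were at 0 in the inhibitor library and 7 of 8 in the control library. Of the ILC2 list, Il1rl1, Il17rb, Il5 and Il13 had no UMI in either library. The list summed to 98.3 CPM in inhibitor and 128 CPM in control ILC1-like cells, against 28.1 and 41.2 CPM in all other kept barcodes, and a gene of it was seen in 38.2% and 42.2% of ILC1-like cells. Zfp683, which encodes the residency factor Hobit, had only 7.76 and 17.8 CPM, and Itgae had none.

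In cells with neither marker set, Xcl1 and Cxcr6 lay between the levels of the named sets. Xcl1 there was 2996 CPM in the inhibitor and 2374 CPM in the control library, and Cxcr6 166 and 235 CPM. Eomes there was 98.5 CPM in the inhibitor and 38.5 CPM in the control library, Klf2 1209 and 581 CPM, and Gzma 3628 and 1026 CPM. These values too lay between those of ILC1-like and conventional NK-like cells. Cells with neither marker set thus held both ILC1 and conventional NK transcripts without a UMI of an admitting gene.

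Among genes at least as high in ILC1-like cells as in other barcodes, a filter added after the values had been seen, granzyme B had the highest interval bound of inhibitor over control. Gzmb had 513 UMIs or 1328 CPM (1215 to 1448) in inhibitor ILC1-like cells and 255 UMIs or 504 CPM (444 to 569) in control ILC1-like cells. The log2 ratio of inhibitor over control was 1.40 (1.18 to 1.62). A Gzmb UMI was seen in 68.4% of inhibitor and 40.4% of control ILC1-like cells. With every cell thinned to 1500 UMIs, which left out 1 and 3 shallower cells, these shares were 52.0% (40.2 to 63.7%) and 29.2% (20.8 to 38.9%). B cells, which should lack the gene, showed it in 0.737% of 407 inhibitor and 0.151% of 663 control cells at median depths of 2889 and 3317 UMIs. No single cell carried the difference, since the cell with most Gzmb UMIs held 6.24% of them in the inhibitor library. Without the top cell of each library the log2 ratio was 1.55. The size of the difference depended on membership. When the rule was applied after thinning every barcode to 1500 UMIs, 37 inhibitor and 53 control cells remained, with Gzmb at 1124 CPM in inhibitor and 794 CPM in control cells, a log2 ratio of 0.50 (0.22 to 0.79).

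Gzmb lies at chr14:56258838-56262260 on the minus strand (GRCm38), beside its relative Gzmc at chr14:56231441-56234656 on the same strand. None of the 451 stretches of 50 bases in the last 500 bases of the annotated Gzmb transcript occurs in another of the 6 granzyme genes compared. Gzmd, Gzme, Gzmf and Gzmg had no UMI in ILC1-like cells.

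The 250 bases before the RefSeq start of Gzmb, of Gzmc and of Prf1 (GRCm38.p6) are shown because Gzmb and Prf1 were higher together and Gzmb went with Gzmc. Capitals mark TGANTCA, the AP-1 motif, and TGTGGT on either strand, the Runx motif. These windows are chr14:56262335-56262584 on the minus strand, chr14:56234658-56234907 on the minus strand and chr10:61297586-61297835 on the plus strand.
Gzmb: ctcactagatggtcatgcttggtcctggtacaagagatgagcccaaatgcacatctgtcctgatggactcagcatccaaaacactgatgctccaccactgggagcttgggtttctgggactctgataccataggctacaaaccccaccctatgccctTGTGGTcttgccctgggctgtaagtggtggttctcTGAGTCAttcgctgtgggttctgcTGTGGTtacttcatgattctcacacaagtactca
Gzmc: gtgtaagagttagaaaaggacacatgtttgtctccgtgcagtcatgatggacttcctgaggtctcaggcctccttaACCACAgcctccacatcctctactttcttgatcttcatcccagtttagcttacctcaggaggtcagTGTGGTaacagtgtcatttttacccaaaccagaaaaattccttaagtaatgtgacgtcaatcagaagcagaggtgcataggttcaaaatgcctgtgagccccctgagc
Prf1: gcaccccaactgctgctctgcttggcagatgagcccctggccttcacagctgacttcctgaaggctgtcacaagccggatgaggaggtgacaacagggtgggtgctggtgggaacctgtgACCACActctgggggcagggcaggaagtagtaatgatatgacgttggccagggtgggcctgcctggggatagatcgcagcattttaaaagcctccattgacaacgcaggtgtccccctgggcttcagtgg
The Gzmb window held 1 AP-1 motif, beginning 58 bases before the start, and 2 Runx motifs, at 93 and 34 bases. The Gzmc window held 2 Runx motifs and the Prf1 window held 1, and neither held the AP-1 motif. The T-box motif GGTGTGA, searched on both strands, was in none of the 3, and no motifs overlapped. Among 32851 windows of this length, 6.75% held the AP-1, 14.0% the Runx and 3.33% the T-box motif. A match is a description of letters and says nothing of binding in these cells.

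Other genes of the killing machinery had smaller ratios above 1. Prf1 had 96 UMIs (248 CPM) in inhibitor and 66 UMIs (130.4 CPM) in control ILC1-like cells, a log2 ratio of 0.93 (0.46 to 1.40). Serpinb9, the inhibitor that shields a killer cell from its own granzyme B, had 236 CPM in inhibitor and 124 CPM in control cells, a log2 ratio of 0.92 (0.44 to 1.41). Gzma had a log2 ratio of 0.75 (0.55 to 0.95), from 20 of 76 inhibitor and 14 of 109 control cells with a UMI. Of its UMIs, 8 inhibitor and 11 control cells held 74.2% and 98.1%, and the interval leaves out such variation between cells. Gzmc, which helped choose the cells, had 875 CPM in inhibitor and 652 CPM in control cells. The death ligands had ratios below 1, with 77.6 CPM in inhibitor and 134 CPM in control cells for Tnfsf10 and 98.3 and 156 CPM for Fasl. Of 12 measured cytotoxic genes, Gzmc among them, 1 was at least 2-fold higher and 0 were lower. Over all 4937 genes measured 3.32% were higher and 4.15% lower, so this count was near those shares. The median log2 ratio of the cytotoxic genes was 0.24, beside -0.01 over all genes measured. Gzmb and Prf1 UMIs were found together in 32 of 76 inhibitor cells (42.1%) and 23 of 109 control cells (21.1%).

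The same genes in the neighbouring cell sets had these values. In conventional NK-like cells Gzmb was 836 CPM in the inhibitor and 822 CPM in the control library (log2 0.02, -0.27 to 0.33). In cells with neither marker set it was 533 and 98.0 CPM (log2 2.44, 1.86 to 3.08). In CD3+ cells with an NK receptor UMI it was 356 and 327 CPM (log2 0.12, -0.20 to 0.45). For Prf1 the log2 ratios were -0.12 (-0.43 to 0.19) in conventional NK-like cells, 1.40 (0.85 to 1.99) in cells with neither set and 1.11 (0.45 to 1.84) in CD3+ cells. The differences between these ratios were not tested, since each set has 1 library per group.

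Conventional NK genes moved with the granzymes. All 7 measured conventional NK markers outside the rule had ratios above 1, 3 of them by at least 2-fold, beside 3.32% of all genes measured, among them Zeb2 (101 CPM in inhibitor, 27.7 CPM in control cells) and Ly6c2 (194 and 19.8 CPM). The whole list of 17 genes summed to 1343 CPM in inhibitor and 646 CPM in control ILC1-like cells, against 5445 and 7224 CPM in conventional NK-like cells. Its Serpinb9b had no UMI in ILC1-like cells of either library, and Cma1 and Klra7 had none in the control library. A UMI of any of 7 conventional NK genes, among them Eomes, Cma1, Klra3, Klra7, Klra9 and Itgam, was present in 31 of 76 inhibitor (40.8%) and 23 of 109 control (21.1%) ILC1-like cells, and in 98.9% and 95.2% of conventional NK-like cells. Monocyte markers were higher as well, the macrophage and monocyte list summing to 2239 CPM in inhibitor and 606 CPM in control ILC1-like cells, and their part in these values was not tested. After members with a UMI of any of the 7 conventional NK genes were left out, 45 inhibitor and 86 control cells remained. The log2 ratio was then 1.60 for Gzmb, 1.51 for Prf1 and 1.49 for Gzma. This exclusion was chosen after the values had been seen. When barcodes with Csf1r or Cd79a UMIs were let in, the ratio of Gzmb was smaller, log2 0.75.

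**Figure D3:**
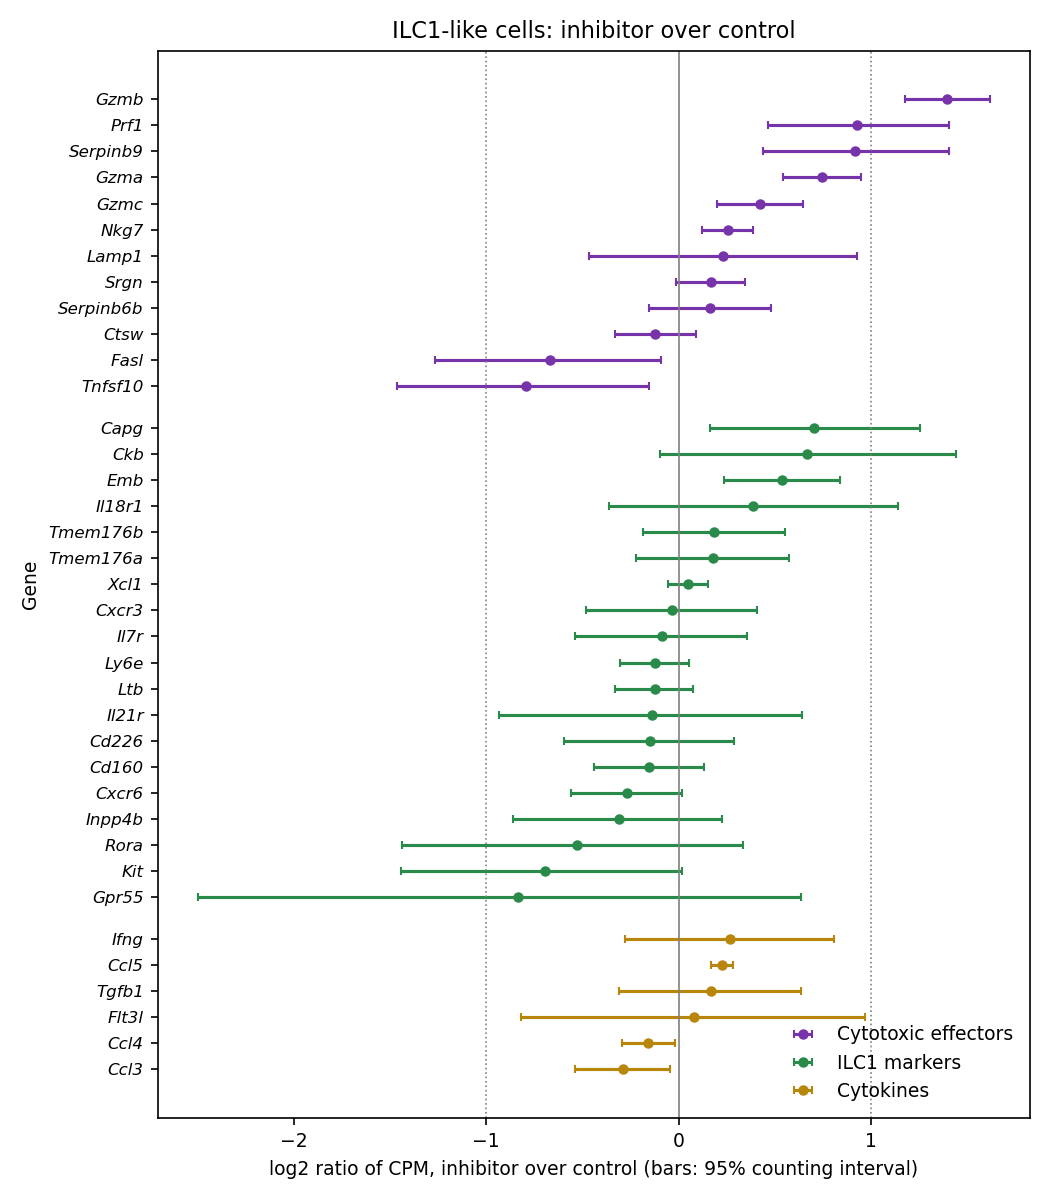
Log2 ratio of CPM, inhibitor over control (x axis), in ILC1-like cells for measured cytotoxic effectors, other ILC1 markers and cytokines, with 95% counting intervals and dotted lines at 2-fold. Gzmb, at 1.40, is the gene past 2-fold, whereas Xcl1 is at 0.05.

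Of 20 measured ILC1 markers outside the rule, 0 were at least 2-fold higher and 0 lower, with a median log2 ratio of -0.12. Over all genes measured 7.47% passed 2-fold either way, so this count is near the share over all genes. Xcl1 had a log2 ratio of 0.05 (-0.06 to 0.15) and Cxcr6 of -0.27 (-0.56 to 0.02). With the rule on thinned barcodes these were -0.44 for Xcl1 (2777 CPM in inhibitor, 3767 CPM in control cells) and -0.75 for Cxcr6 (379.8 and 639 CPM). Without members with conventional NK genes Xcl1 was at 0.64 (4154 and 2664 CPM). Of 8 measured cytokine and chemokine genes 0 passed 2-fold either way. Ifng, the main ILC1 cytokine, had 148 CPM in inhibitor and 122 CPM in control cells (log2 0.27, -0.28 to 0.81). Ccl5, at 11441 and 9786 CPM, was the most abundant of them, with Ccl4 at 1843 and 2054 CPM and Ccl3 at 572 and 699 CPM.

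In all, 164 of 4937 measured genes (3.32%) were at least 2-fold higher in inhibitor than in control ILC1-like cells and 205 (4.15%) at least 2-fold lower. Either way 369 genes (7.47%) passed. Among the 10 highest by the interval bound nearest to 1 were Ifitm3, Plac8, Ms4a6c, Ly6c2, Wfdc17, Gpx1, Cst3, Lgals3 and Ifi27l2a, most of which are abundant in monocytes. The 10 lowest were the liver secretory genes Alb, Ahsg, Fgg, Apoa1, Fgb, Hpx, Serpina1b, Mup20, Apoa4 and Kng1.

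Monocyte RNA was widespread in the inhibitor library, and a few cells held most of it. Lyz2, a lysozyme of myeloid cells, had 1806 CPM in inhibitor and 49.4 CPM in control ILC1-like cells, and 1 cell held 43.7% of its 698 inhibitor UMIs. A Lyz2 UMI was seen in 56.6% of inhibitor and 11.9% of control ILC1-like cells (24.0% and 4.72% thinned), against 46.4% and 14.8% of B cells (30.3% and 9.38% thinned). Cst3 had 743 CPM in inhibitor and 192 CPM in control cells, with 63.8% of the inhibitor UMIs in 1 cell. The macrophage and monocyte list was detected with 12 of 15 genes in the inhibitor and 11 of 15 in the control library and summed to 2239 and 606 CPM. Csf1r was at 0 by the rule, C1qc and Ms4a7 were at 0 in the inhibitor library, and Adgre1, Fcgr1 and F13a1 in the control library. Over 1% of UMIs came from this list in 3 of 76 inhibitor and 0 of 109 control cells. Leaving out cells with over 1% of another cell type's markers left 71 and 106 cells. The median log2 ratio of the list's measured genes was then -0.16, against 3.26 with those cells. This filter used the list itself, so a fall was set in advance, and each median is over the genes measured in its setting. Lyz2 without those cells had 166 CPM in inhibitor and 44.8 CPM in control cells. Gzmb without those cells had a log2 ratio of 1.52. The dendritic cell list summed to 1566 CPM in inhibitor and 490 CPM in control ILC1-like cells and the neutrophil list to 481 and 96.8 CPM, and their part in these results was not tested.

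Liver RNA was lower in the inhibitor library in ILC1-like cells and elsewhere. Alb, serum albumin, had 28.5 CPM in inhibitor and 595 CPM in control ILC1-like cells. The hepatocyte list of 12 genes summed to 184 CPM in inhibitor and 1235 CPM in control ILC1-like cells, and to 618 and 4434 CPM in all other kept barcodes. Of its 12 genes 8 were seen in the inhibitor library, where Fgb, Fgg, Cps1 and Mup3 were at 0, and 12 in the control library. Of 9 measured genes 7 were at least 2-fold lower and 1, Apoa2, higher, beside 4.15% and 3.32% of all genes measured. A hepatocyte gene was seen in 28.9% of inhibitor and 90.8% of control ILC1-like cells. The part of free liver RNA in other results was not tested beyond the subtraction given with the alternatives.

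To look past genes of other cells, a rule added after the values had been seen kept genes at least as high in ILC1-like cells as in all other kept barcodes in both libraries. Of 2548 such genes 14 (0.549%) were at least 2-fold higher and 75 (2.94%) at least 2-fold lower in inhibitor than in control ILC1-like cells. By the bound nearest to 1, the 10 highest were Gzmb, Gzma, Gem, Prf1, Serpinb9, Mxd1, Nabp1, Cfl1, Serpina3g and Emb. Gem, a small GTPase induced on activation, had 339 CPM in inhibitor and 178 CPM in control cells (log2 0.93, 0.53 to 1.33). Mxd1, a Myc antagonist, had 186 and 101 CPM (log2 0.89, 0.35 to 1.43). Emb, embigin, had 502 and 346 CPM (log2 0.54, 0.24 to 0.84). In conventional NK-like cells Gem had 357 CPM in the inhibitor and 227 CPM in the control library, and Emb 609 and 381 CPM, so ratios above 1 were not limited to ILC1-like cells.

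The 10 lowest were Lars2, Cables1, Ets1, Hist1h1e, Nsmce1, Tspan32, Itih5, Pold2, Gabbr1 and Nlk. Ets1, a transcription factor needed for NK and ILC development, had 233 CPM in inhibitor and 462 CPM in control ILC1-like cells (log2 -0.99, -1.36 to -0.63). In conventional NK-like cells Ets1 was 325 and 368 CPM. In all other kept barcodes it was also lower, at 89.0 and 145 CPM (log2 -0.71, -0.76 to -0.66). Its log2 ratio was -0.35 in cells with neither marker set and 0.05 in CD3+ cells with an NK receptor UMI. Lars2, the mitochondrial leucyl-tRNA synthetase, had 62.1 and 180 CPM in inhibitor and control ILC1-like cells (log2 -1.53), and its log2 ratio over all other kept barcodes was -1.37. All 13 mitochondrial transcripts had ratios below 1, with a median log2 of -0.33, summing to 53685 CPM in inhibitor and 67826 CPM in control ILC1-like cells. Their part in the Lars2 value was not tested. Cables1, Itih5, Pold2, Gabbr1 and Nlk rest on 3 to 6 inhibitor UMIs.

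The counts over stimulation genes were near the shares over all genes, 3.32% higher and 4.15% lower. Among 14 measured NF-kB targets 1 was at least 2-fold higher, Icam1, an adhesion molecule, at 155 CPM in inhibitor and 63.2 CPM in control cells (log2 1.30, 0.65 to 1.96), and 0 were lower. Nfkbia, the feedback inhibitor of NF-kB, had 492 and 271 CPM (log2 0.86, 0.54 to 1.19), and Pim1, a survival kinase, 355 and 188 CPM (log2 0.92, 0.53 to 1.31). Of 18 measured immediate early genes 2 were at least 2-fold higher, Nr4a1 (90.6 CPM in inhibitor, 29.6 CPM in control cells) and Atf3 (51.8 and 19.8 CPM), and 1 was lower, Egr1 (7.76 and 35.6 CPM). Fos and Jun had ratios below 1, at 236 and 332 CPM and at 393 and 561 CPM, while Dusp1 had 543 and 312 CPM. The median over the list was -0.06. The tissue had been digested with collagenase for 1 hour, and the part of this step was not tested.

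For transcription factors, receptors and signalling genes the counts were again near the 3.32% and 4.15% over all genes. Of 18 measured lineage factors 2 were at least 2-fold higher, Nfil3 (72.5 CPM in inhibitor, 31.6 CPM in control cells; log2 1.20, 0.26 to 2.18), required for NK cell development, and Zeb2. Tbx21, which encodes T-bet, had 93.2 and 98.8 CPM. Of 20 cytokine receptor and STAT genes 1 was higher, Socs3 (59.5 and 25.7 CPM), and 1 lower, Stat5b (15.5 and 39.5 CPM). Of 13 activating receptor genes 1 was higher, Crtam (72.5 and 35.6 CPM), and 0 lower. Among 7 measured checkpoint genes Ctla4 was higher, at 56.9 CPM in inhibitor and 17.8 CPM in control cells, from 22 and 9 UMIs. Of 10 TGF-beta pathway genes 0 were higher and 1, Smad4, lower, at 18.1 and 41.5 CPM, and the list had a median log2 ratio of -0.40.

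Of 15 measured cell cycle genes 0 were at least 2-fold higher and 4 lower, beside 3.32% and 4.15% of all genes: Pclaf (10.4 CPM in inhibitor, 67.2 CPM in control cells), Birc5, Stmn1 (69.9 and 180 CPM) and Mki67 (31.1 and 71.1 CPM). Top2a had 85.4 and 55.3 CPM, and a UMI of Mki67 or Top2a was seen in 8 of 76 inhibitor and 7 of 109 control cells. The list's median log2 ratio was -0.27, and 0.50 with the rule on thinned barcodes. Glycolysis and hypoxia genes had a median log2 ratio of 0.16 over 11 genes and oxidative phosphorylation genes of 0.09 over 16, with 0 past 2-fold in either list. Heat shock (14 genes) and MHC class I (11 genes) also had 0 past 2-fold. Of 11 type I interferon genes 1 was higher and 0 lower, with a median of -0.00, and of 10 interferon gamma response genes 0 passed 2-fold, with a median of -0.22.

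The drug's target was scarce in these cells. Fabp5 had 5 UMIs in inhibitor (12.9 CPM) and 5 in control ILC1-like cells (9.88 CPM). It was seen in 5.26% and 4.59% of ILC1-like cells, against 4.42% and 4.68% of B cells at median depths of 2889 and 3317 UMIs, so the shares were close to those of B cells. Thinned, the shares were 1.33% and 1.89% of ILC1-like cells and 1.25% and 1.54% of B cells. Conventional NK-like cells had no Fabp5 UMI, in 0 of 93 inhibitor and 0 of 42 control thinned cells, which allows shares of up to 3.23% and 7.14%. Of 12 measured lipid handling genes 1 was at least 2-fold higher and 0 were lower, beside 3.32% and 4.15% of all genes measured. The 1 gene was Fabp1, with 84.2% of its 19 inhibitor UMIs in 1 cell. The list had a median log2 ratio of 0.06. Acadl, Hadhb and Pnpla2, genes of fat breakdown, had 122, 116 and 56.9 CPM in inhibitor and 115, 88.9 and 47.4 CPM in control cells.

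**Figure D4:**
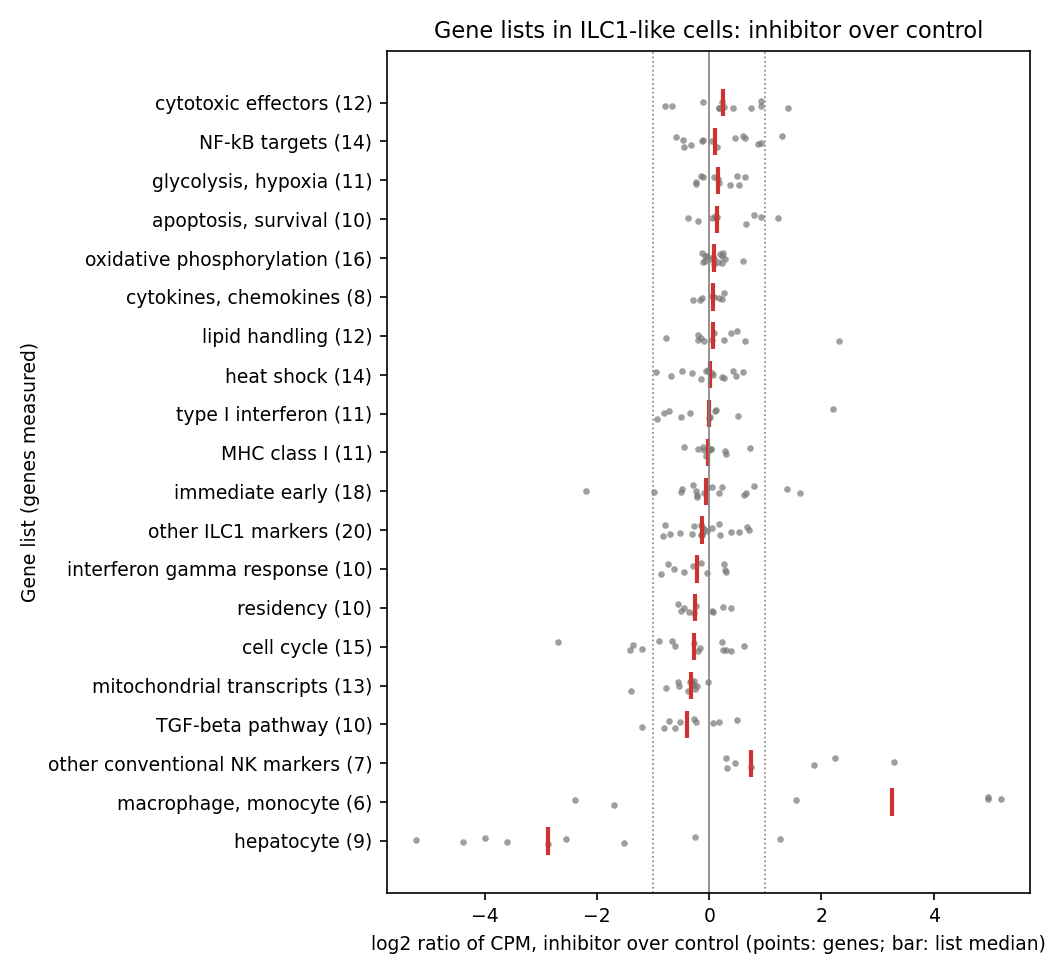
Log2 ratio of CPM, inhibitor over control (x axis), of each measured gene in ILC1-like cells by list, with a bar at each list's median and dotted lines at 2-fold. Genes without a UMI in 1 library are drawn at the ratio from a floor of 3 UMIs. The cytotoxic median is 0.24, the macrophage and monocyte median 3.26 and the hepatocyte median -2.88.

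ILC1-like cells were not uniform. Gzmc was seen in 24 of 76 inhibitor cells (31.6%) and 34 of 109 control cells (31.2%), Cd200r1 in 48 and 61, and Itga1 in 35 and 56. All 3 genes were seen together in 4 and 6 cells. The 8 inhibitor and 11 control cells with most UMIs of a gene held 83.4% of Gzmc UMIs in the inhibitor and 85.2% in the control library. For Gzma the shares were 74.2% and 98.1%, for Xcl1 43.3% and 42.0%, and for Gzmb 40.4% and 66.7%. Gzmc and Gzma were thus concentrated in few cells in both libraries, and Gzmb was more spread in the inhibitor library.

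Gzmb went with Gzmc. In the inhibitor library Gzmb had 2315 CPM in cells with a Gzmc UMI and 878 CPM in those without (log2 1.40, 1.14 to 1.66). In the control library it had 933 and 271 CPM (log2 1.78, 1.40 to 2.17). Among 2449 genes measured in both libraries 5 (0.204%) were at least 2-fold higher with a Gzmc UMI in both and 6 (0.245%) lower. Xcl1 was 5622 CPM with and 2377 CPM without a Gzmc UMI in the inhibitor library, and 4032 and 2871 CPM in the control library. Of cells with a Gzmc UMI, 21 of 24 inhibitor and 21 of 34 control cells had a Gzmb UMI. Of those without, 31 of 52 inhibitor and 23 of 75 control cells had one. The inhibitor over control ratio of Gzmb was log2 1.31 (1.03 to 1.60) in cells with a Gzmc UMI and 1.70 (1.34 to 2.06) in cells without, so it was present in both.

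**Figure D5:**
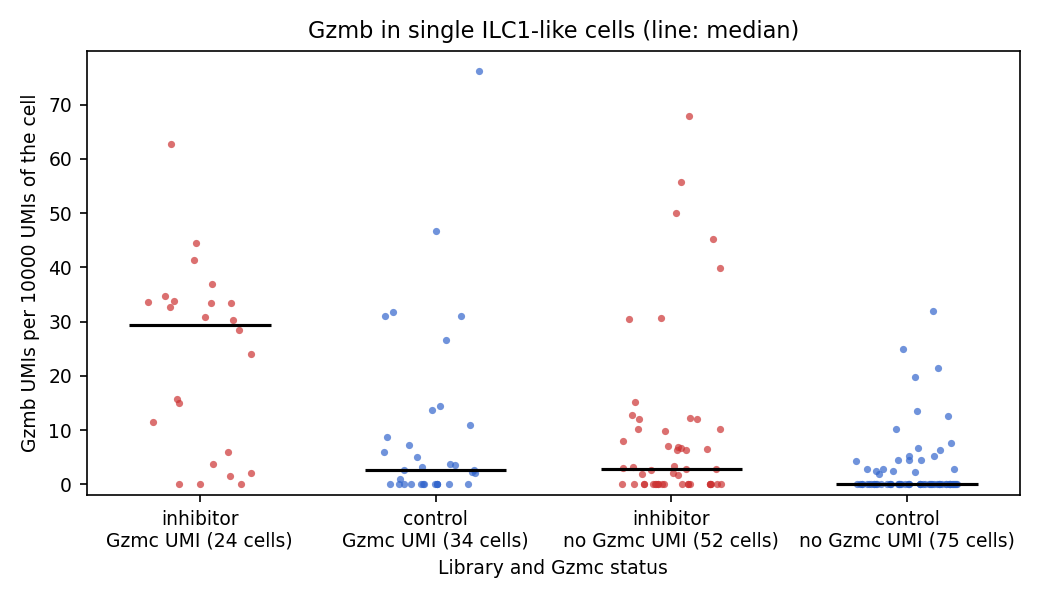
Gzmb UMIs per 10000 UMIs (y axis) in each ILC1-like cell by Gzmc status and library (x axis), with a line at the median. The medians are 29.4 in inhibitor and 2.65 in control cells with a Gzmc UMI, and 2.84 and 0 in cells without.

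The other admitting genes marked different contrasts. Klf2 was lower in cells with a Cd200r1 UMI than in those without in both libraries, at 261 and 849 CPM in the inhibitor library and 162 and 407 CPM in the control library. Of 2449 genes 3 (0.122%) were higher and 3 (0.122%) lower with Cd200r1 in both libraries. Gzma was higher with an Itga1 UMI, at 1866 and 746 CPM in the inhibitor and 1100.1 and 331 CPM in the control library. Nfkbia and Tnfrsf9, an activation receptor, were lower with Itga1, Tnfrsf9 at 113 and 303 CPM in the inhibitor and 110 and 323 CPM in the control library. With Itga1, 6 genes (0.245%) were higher and 9 (0.367%) lower in both libraries. The cells without one admitting gene must hold another, so these contrasts are partly set by the rule and are given as a description.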

How the data were processed

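Per the labels, 2 droplet 3′ libraries were compared. The deposited files hold raw UMI counts per gene and barcode for 31053 features, already limited to barcodes with at least 500 UMIs in the inhibitor and 502 in the control library. The file headers name Cell Ranger 5.0.1 as their writer. Tools listed in the submitters' processing notes were Seurat 3, R 3.0 and Cell Ranger, with the build mm9, whereas gene positions printed here are from GENCODE M21 on GRCm38, matched by gene identifier, and promoters are from RefSeq on GRCm38.p6, matched by symbol. The deposited libraries held 68074929 inhibitor and 53378693 control UMIs in 10649 and 9493 barcodes. Of all barcodes 917 and 1506 failed the gene minimum and 885 and 2204 the mitochondrial limit. Some failed both and are in both counts, and 9470 and 6835 barcodes were left.

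Counts were summed over the cells of a set in each library and scaled to CPM of all their UMIs. Levels have exact Poisson, shares exact binomial (Clopper-Pearson) and ratios exact conditional binomial 95% intervals, for counting error only. Intervals of gene levels and of their ratios take each UMI as independent, so variation between cells is not in them. With 1 library per group nothing was tested, and a gene was called by size, at least 2-fold with at least 20 UMIs over both libraries. For ILC1-like against conventional NK-like cells a gene needed at least 20 UMIs in each library and the same direction in both. A count of 0 was set to 3 UMIs, as a bound. Named genes were the 10 highest and 10 lowest by the interval bound nearest to 1, seen in at least 10% of the cells where higher and at 10% or more of the level in other barcodes there, leaving out genes of haemoglobin, antigen receptors, ribosomal proteins and mitochondria and those without a name. Some genes that this rule or a list picks are not reported here. Lists (38, with 472 of 474 genes found) are described by counts and medians. The members and lists were chosen with earlier results of these data known. No doublets were removed in the main values, and removal by simulated-doublet scores was an alternative, as were other limits for barcodes and for the rule, other scalings, subtraction of free RNA and other size limits. The interval and ratio code was tested on simulated data. Python 3.11.15, numpy 2.4.6, scipy 1.17.1 and scikit-learn 1.9.0 were used.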

Additional observations from a re-analysis of the deposited data

Results flagged for a closer look

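Measured genes whose ratio of inhibitor over control had counting intervals on opposite sides of 1 in ILC1-like and conventional NK-like cells are given here. The difference between the cell sets was not tested, and these intervals leave out variation between cells. Gzma had a log2 ratio of 0.75 in ILC1-like cells (1206 CPM in inhibitor, 719 CPM in control cells) and of -0.38 in conventional NK-like cells (8031 and 10416 CPM). Klf2 had 0.75 in ILC1-like cells (458 and 273 CPM) and -0.39 in conventional NK-like cells (2400.4 and 3142 CPM). With the rule on thinned barcodes Klf2 in ILC1-like cells was -0.069 (426 and 447 CPM), so the opposite direction was lost. Ccl5 had 0.23 in ILC1-like cells (11441 and 9786 CPM) and -0.20 in conventional NK-like cells (14251 and 16400 CPM), and -0.089 in ILC1-like cells once barcodes with Csf1r and Cd79a UMIs were let in. Smad7 had -0.81 (-1.65 to -0.03) in ILC1-like cells (51.8 and 90.9 CPM) and 1.20 (0.01 to 2.61) in conventional NK-like cells (98.5 and 43.0 CPM). Hbb-bs, a globin gene of red cells, had -0.44 (-0.88 to -0.001) in ILC1-like cells (181 and 245 CPM) and 5.11 in conventional NK-like cells (9955 and 288 CPM). Both barely qualified. In ILC1-like cells the interval spanned 0 under several alternatives, for Smad7 with the rule on thinned barcodes (-1.89 to 0.28) and for Hbb-bs with doublets removed (-0.87 to 0.03).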

How the results depend on the processing

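The lower share of ILC1-like cells kept its direction under all 10 alternatives run, with a log2 ratio of -0.75 to -1.40 of kept barcodes beside -0.99 in the main setting. The value of -1.40 came from leaving out members with conventional NK genes. That setting only removes members, 40.8% of inhibitor and 21.1% of control ones, so its lower ratio was set in advance and is no support. Gzmb kept its direction in the alternatives run, at log2 0.50, with the rule on thinned barcodes, to 1.73, with a stricter T cell exclusion. Counts moved with the size rule. With at least 10 UMIs, 379 genes were higher and 527 lower in inhibitor ILC1-like cells, 34 and 154 of them among genes at least as high as in other barcodes, and 178 were higher and 122 lower than in conventional NK-like cells. With at least 50 UMIs these counts were 38, 23, 1, 11, 40 and 28. With a fold of 1.5 they were 535, 638, 122, 277, 252 and 164. For the subtraction of free RNA, its profile was taken as the sum over all deposited barcodes of a library. Its amount was the hepatocyte list's share of UMIs in the cell set relative to that in this profile. The profile holds the RNA of cells too, so the amounts are not a measure of free RNA alone. They were 25.6% in inhibitor and 9.78% in control ILC1-like cells, and 46.0% and 7.78% in conventional NK-like cells. After this subtraction 385 genes were lower, and 31 of the ILC1-level genes were higher. With the mean over cells 22 of the latter genes were higher. Alternatives chosen after seeing the data also moved counts. With the rule on thinned barcodes 102 genes were higher, 44 ILC1-level genes were lower and 57 genes were higher than in conventional NK-like cells, with Hist1h1e at 0.56 and Klf2 at -0.069. Without cells over 1% of another type 95 genes were higher. With Csf1r and Cd79a let in, 493 genes were higher, and 4 of the ILC1-level genes were higher and 129 lower. Without members with 1 of 7 conventional NK genes, 89 genes were higher, and 47 ILC1-level genes were lower.

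Medians of myeloid lists fell below 0 in some settings, each taken over the genes measured in that setting. The filter on cells over 1% of another type used these lists, so a fall there was set in advance. The macrophage and monocyte median was -0.66 with doublets removed, -0.16 without cells over 1% of another type and -0.82 without members with conventional NK genes. Lyz2, a gene of this list, stayed higher in the inhibitor library under those settings, at log2 3.85, 1.89 and 1.42. The dendritic median was -1.17 and -0.60 and -1.44 under those settings, -0.82 with a stricter T cell exclusion and -0.53 with Csf1r and Cd79a let in. Ccl5 was -0.089 with Csf1r and Cd79a let in. Ifi27l2a was -0.17 without cells over 1% of another type and -1.53 without members with conventional NK genes, where Ifitm3, Wfdc17 and Lgals3 were each -0.12. These settings change which cells are members, and the cause beyond that was not tested. No paired analysis was possible because each group has 1 library. Genes under 20 UMIs, such as Fabp5 and Eomes, are beyond the depth of these cells.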

Other observations

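Checkpoint and residency genes were described against conventional NK-like cells, where 3.04% of all genes were higher in both libraries. Of 6 measured checkpoint genes 4 were at least 2-fold higher in ILC1-like cells in both libraries and 0 lower. The 4 include Cd200r1, which the rule used and which was at 0 in conventional NK-like cells by their selection. Of 10 residency genes 5 were higher and 0 lower. Among the 5 were Cxcr6 and Xcl1, which are also ILC1 markers, and Itga1, which the rule used. Lag3, an inhibitory receptor, had 56.9 CPM in inhibitor and 84.9 CPM in control ILC1-like cells, against 0 and 6.14 CPM in conventional NK-like cells. Rgs1, which dampens chemokine receptor signals, had 2350 and 2234 CPM in ILC1-like cells, against 548 and 810 CPM in conventional NK-like cells. The transcription factors Tox and Ikzf2 had 122 and 137 CPM in inhibitor and 194 CPM each in control ILC1-like cells, against 39.9 and 29.3 CPM in inhibitor and 55.2 and 24.6 CPM in control conventional NK-like cells.

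Csf2, which encodes the growth factor GM-CSF, was under the measuring limit with 41.4 CPM in inhibitor and 3.95 CPM in control ILC1-like cells, from 16 and 2 UMIs, with most of the inhibitor UMIs in 1 cell, and was singled out after its values were seen.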
